A study of Mus musculus with 12 samples.

Results

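Solute carriers are membrane proteins that move small molecules across cell membranes. Their families are numbered by sequence and carry amino acids, sugars, metals, ions, nucleotides, vitamins and organic acids, either down a gradient or coupled to an ion. In neutrophils they are known for supplying glucose and exporting lactate during glycolysis, for taking metals away from engulfed microbes and for holding the pH of the cell and its vesicles. The genes described here were the rows of the expression table whose gene identifier belongs to a protein-coding mouse gene with a symbol starting in Slc and a number, or in Slco. There were 161 of them among 9374 genes, from 46 families, against 389 protein-coding genes with such symbols in RefSeq. The rule goes by name, so it also took Slc9a3r1, a scaffold protein, and Slc4a1ap and Slc7a6os, which are named after a neighbour or partner and are not transporters.

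The libraries were made from neutrophils isolated from the blood of female mice, 12 in all, in 4 groups of 3. WT-Saline and WT-LPS came from wild-type mice, and KO-Saline and KO-LPS from the line labelled Hmgb1ΔMye, a name used for deletion of Hmgb1 in myeloid cells. Mice received saline or lipopolysaccharide (LPS, the bacterial cell wall component sensed by Toll-like receptor 4) at 0.5 mg/kg, 16 hours before the cells were taken. The sources used here do not give the Cre driver, the ages of the mice or the purity of the cells. Whether the 3 libraries of each group represent different mice is not stated in the labels, so the tests measure the spread between libraries, which may be technical.

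Each library held 399702 to 526757 reads in the table. All 8 neutrophil markers looked for were present, S100a9 and Csf3r among the 25 genes with most reads. Hmgb1, the targeted gene, had 8, 17 and 12 reads in WT-Saline and 14, 15 and 34 in WT-LPS. The KO-Saline libraries held 14, 10 and 25 reads of it and the KO-LPS libraries 6, 30 and 16. Its averaged log2 difference between genotypes was 0.16 ± 0.40 (limma, adjusted p = 0.978). Reads over the whole gene do not check a deletion of part of it, so the libraries are called KO-labelled. KO-LPS replicate 1 stood apart from replicates 2 and 3. At the 1095 genes that limma called for LPS in WT, its value was nearer to the KO-Saline mean for 826 (75.4%), against 125 and 117 for the other two. LPS responses of the members called in the KO-labelled libraries are therefore given with and without it, and genotype differences without it where they move. Other KO-labelled values, pooled reads among them, include it unless the text says otherwise. KO-Saline replicate 3 had 19.2% of genes at 0 reads, against 6.93% to 12.6% in the other 11 libraries.

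A caution on strand applies to every level given here. The library kit marks the strand of the RNA, but the sources used here do not give the strand setting of the counting. For 44 members (27.3%, against 36.8% of all matched genes) an exon overlapped one of an opposite-strand gene. Of 23 such partners that were in the table, 8 had more reads than the solute carrier. With the strand setting not known, the counts of a pair do not show which gene gave the reads. Reads that run past the end of a gene on the other strand could also be counted, so a measured neighbouring gene is given for some members. These neighbours were looked up after the members' values were seen.

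The most abundant transporters were compared per length, as RPKM (reads scaled to exon length and library size). The members together took 1.04% of the reads in the table, and their median level was 5.06 RPKM, against 6.25 over all matched genes. In WT-Saline their share was 1.10% to 1.16% and in WT-LPS 0.928% to 0.998%, without overlap. It was 1.07% to 1.10% in KO-Saline and 1.0% to 1.04% in KO-LPS. A share of reads is weighted to the abundant members, and Slc24a1 alone went from 1349 to 358 pooled reads in WT. The members' median log2 difference in WT was -0.05, with 78 positive and 83 negative. The members had a median of 9.08 reads per library, 77 of them had a mean of at least 10 reads, and 16 had at least 100. The 10 members with the most reads held 38.9% of the members' reads.

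Slc25a18, a mitochondrial glutamate carrier, had the highest level per length, 287 RPKM averaged over the 12 libraries. It had 152 to 282 reads in WT-Saline and 185 to 286 in WT-LPS. Its exons overlap 32 bases of Atp6v1e1, a proton pump subunit on the opposite strand, which had 22.1 reads per library against 245.5. Next were Slc10a1, the bile acid importer known from liver cells, at 166.6 RPKM, and Slc22a20, an organic anion transporter, at 158.6. Slc10a1 had 161.1 reads per library and ends 2676 bases from the end of Srsf5, a splicing factor gene on the opposite strand with 34.8 reads. Slc22a20 lies 2402 bases from Capn1, a calpain gene on its own strand with 149.6 reads. The part of these neighbours in the 3 levels was not tested.

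Transporters known from phagocytes followed. Slc31a2, which acts on copper in endosomes and lysosomes, stood at 100.5 RPKM. Slc11a1 (NRAMP1), which pumps metals out of the phagosome, reached 82.91 and Slc16a3 (MCT4), a lactate exporter, 82.06. Slc2a6, a glucose transporter of internal membranes, had 80.57, and the facilitative glucose transporters Slc2a3 and Slc2a1 had 53.5 and 29.61. Slc24a1, a calcium exchanger, stood at 137.3 RPKM, Slc18a2, a vesicular monoamine transporter, at 83.73, and the scaffold gene Slc9a3r1 at 77.72.

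The leading gene of each remaining substrate group was lower. Slc23a1, an ascorbate transporter, led the vitamins at 71.96 RPKM and Slc35e1, an orphan of the nucleotide sugar family, led its group at 40.95. Slc15a3, a lysosomal histidine and peptide transporter, led the amino acid group at 33.32. It overlaps Tmem132a, which had 763.6 reads per library against its own 80.7. Slc48a1, a heme transporter, was the sole member with another substrate and had 10.91. It overlaps Hdac7 by 29 bases.

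**Figure D1:**
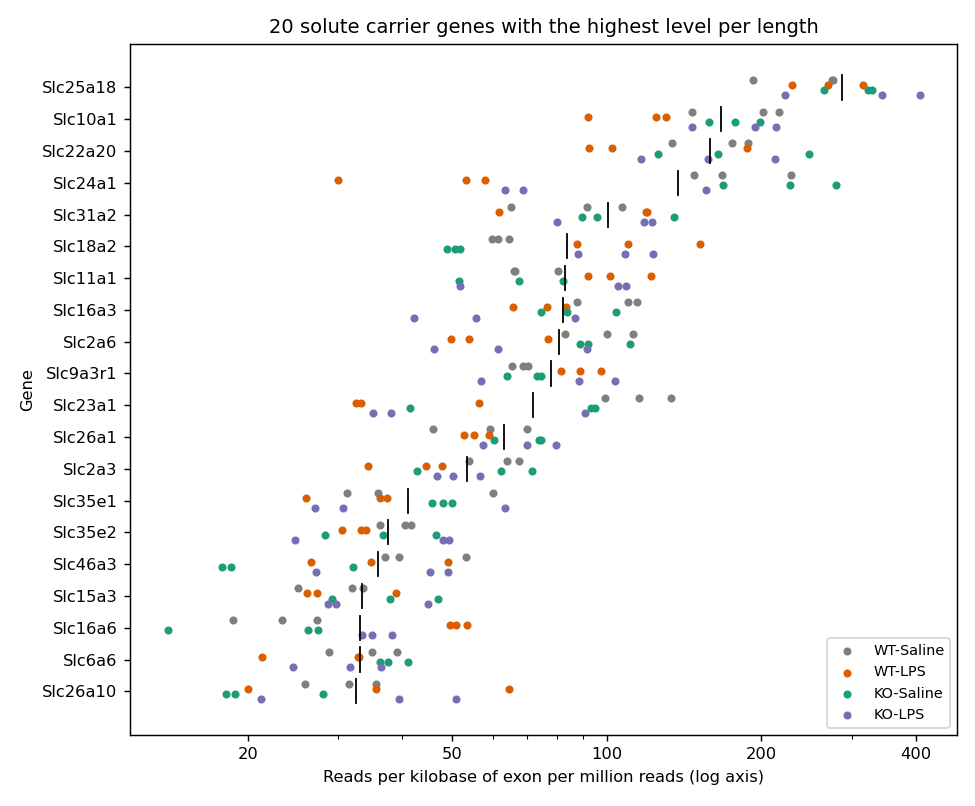
Level per length of the 20 solute carrier genes with the highest mean, as RPKM (reads scaled to exon length and library size) on a log axis. Each dot is 1 library, coloured by group, and the black bar is the mean over the 12 libraries. Slc25a18 stands highest at 287, and the Slc24a1 dots of WT-LPS lie below all 3 of WT-Saline.

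The first comparison asked how the transporters differed after LPS in WT mice. Of 161 members, limma called 12 (7.45%) at an adjusted p under 0.05, against 11.7% of all genes. The 4 that rose were Slc16a6, Slc18a2, Slc24a3 and Slc7a5 (2.48% of members, against 6.72% of all genes). The 8 that fell were Slc23a1, Slc24a1, Slc25a33, Slc35a4, Slc40a1, Slc45a4, Slc9a8 and Slc9a9 (4.97%, against 4.96%). The 3 WT-LPS libraries lay above all 3 WT-Saline libraries for 22 members (13.7%, against 16.5% of all genes) and below them for 19 (11.8%, against 14.3%). The share that fell was at the background, and the other shares were under it. The fit without the mean-variance trend kept Slc24a1, Slc24a3, Slc7a5 and Slc9a9 and lost the other 8 calls, at adjusted p from 0.0758 to 0.189. In bulk RNA, fewer cells of a type and less RNA per cell cannot be told apart.

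Markers of other cells also moved with LPS. Of 6 platelet markers, 3 were in the table (Gp1ba, Gp9 and Clec1b). All 3 fell in WT, and their summed level ran from 523 to 779 CPM in WT-Saline and from 161 to 255 in WT-LPS. Clec1b had 32 reads in WT-Saline and 0 in WT-LPS. Of 4 dendritic cell markers, Clec9a and Xcr1 were in the table, summing to 75.0 to 175 CPM in WT-Saline and 5.58 to 21.3 in WT-LPS. Clec9a went from 174 to 0 pooled reads and Xcr1 from 26 to 19, and limma called 1 of the 2 lower. Of 4 B cell markers, only Cd79a was in the table, at 9.68 to 29.6 CPM in WT-Saline and 101 to 134 in WT-LPS. Of 8 monocyte and macrophage markers, 4 were in the table. Ly6c2 went from 47 to 551 pooled reads, Csf1r from 342 to 188, Apoe from 115 to 14 and Adgre1 from 52 to 27. Limma called 1 of the 4 higher and 2 lower, and their summed level ran from 353 to 460 CPM in WT-Saline against 496 to 640 in WT-LPS. Of 6 T and NK cell markers, Cd3d and Tcf7 were in the table and 1 fell. Of 8 neutrophil markers, 5 rose and 1 fell. Their part in the transporter changes was not tested.

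Calcium and sodium exchangers moved in both directions. Slc24a1 exchanges sodium for calcium and potassium and is best known from rod photoreceptors. The gene lies at chr9:64922861-64951607, minus strand (GENCODE M21, GRCm38, as for the positions below). It had 319, 562 and 468 reads in WT-Saline and 66, 143 and 149 in WT-LPS. The KO-Saline libraries held 556, 546 and 361 reads and the KO-LPS libraries 305, 134 and 167. All 3 LPS libraries lay below all 3 saline libraries in each genotype. Its level fell from 944 ± 217 to 245 ± 77.7 CPM in WT (SD, n = 3), a log2 difference of -1.97 ± 0.29 (limma, adjusted p = 3.21e-05). The call held without each library in turn and under the other alternatives that were run. Dennd4a, a gene of vesicle traffic on the opposite strand, ends 3194 bases from the end of Slc24a1. It had 212.0 reads per library and also fell in WT, by 1.38 ± 0.25 on the log2 scale (limma, adjusted p = 0.000296). Its part in the Slc24a1 reads was not tested.

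Slc24a3 (chr2:145167754-145642166, plus strand), a potassium-dependent exchanger of the same family, had 0 reads in all 3 WT-Saline libraries and 14, 7 and 11 in WT-LPS. It had 1, 0 and 0 reads in KO-Saline against 5, 9 and 4 in KO-LPS. The LPS libraries lay above the saline libraries in each genotype. Against a floor of 3 reads per library, its level was at least 3.56-fold higher in WT-LPS (limma, adjusted p = 0.00314). This call also held without each library in turn and under each other alternative that covered the gene. The fit of genes with a mean of at least 10 reads left it out. In the KO-labelled libraries, 18 reads stood against 1, 18.1 times as many after scaling (95% counting interval 2.86 to 754) (limma, adjusted p = 0.0885).

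The 250 bases before the annotated starts of the pair are shown because they changed in opposite directions within 1 family. They are from RefSeq (GRCm38.p6), 5′ to 3′ on the strand of the gene. Slc24a1 (chr9:64951621-64951870, minus strand) was taken as the 1 member called in the same direction in both genotypes that had an entry and no opposite-strand overlap. Slc24a3 (chr2:145167525-145167774, plus strand, the window nearest to its GENCODE start) was chosen after its values were seen. Capitals mark matches of 5 motifs searched on both strands: TGATGNAA (amino acid response element core), TGACNNNGC (antioxidant response element core), TGACTCA (AP-1), GAAA followed by any 2 bases and GAAA (interferon-stimulated response element core), and GGG followed by any 5 bases and CC (NF-kB).
Slc24a1: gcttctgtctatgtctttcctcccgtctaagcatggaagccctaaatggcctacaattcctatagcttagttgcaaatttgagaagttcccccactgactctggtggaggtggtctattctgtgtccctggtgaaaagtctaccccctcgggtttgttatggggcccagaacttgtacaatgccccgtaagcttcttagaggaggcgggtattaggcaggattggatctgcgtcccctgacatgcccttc
Slc24a3: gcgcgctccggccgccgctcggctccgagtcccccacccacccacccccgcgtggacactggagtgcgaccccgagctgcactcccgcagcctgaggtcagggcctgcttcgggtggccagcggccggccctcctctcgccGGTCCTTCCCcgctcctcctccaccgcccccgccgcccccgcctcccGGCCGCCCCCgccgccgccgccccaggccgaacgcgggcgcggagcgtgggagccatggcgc
The Slc24a1 window held no match and 50.8% G and C bases. The Slc24a3 window held 80.8% G and C and 2 matches of the NF-kB motif, starting at -109 and -62 from the start site. That motif was in 45.8% of 32851 promoter windows of all genes and in 61.5% of the members' 161 windows, which covered 124 members. The other shares over all windows were 3.45%, 10.2%, 4.46% and 2.98%, in the order in which the motifs are named. A match is a description of letters in this window.

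Both called sodium proton exchangers fell. Slc9a9, which sets the pH of endosomes (chr9:94669909-95230445, plus strand), had 7, 19 and 11 reads in WT-Saline and 0, 0 and 1 in WT-LPS. With 37 pooled reads against 1, the ratio of LPS to saline was 0.0268 (95% counting interval 0.000661 to 0.159) (limma, adjusted p = 0.00586). The call held without each library in turn and under each other alternative that covered the gene. The fit of genes with a mean of at least 10 reads left it out. In the KO-labelled libraries it had 14, 9 and 5 reads in saline and 2, 0 and 2 in LPS, again without overlap (limma, adjusted p = 0.153).

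Slc9a8, an exchanger of the Golgi (chr2:167421712-167477000, plus strand), had 43, 62 and 69 reads in WT-Saline and 17, 14 and 31 in WT-LPS. Its log2 difference was -1.53 ± 0.50 (limma, adjusted p = 0.0425). The call was lost without any 1 of the 6 WT libraries, at adjusted p from 0.0524 (without WT-LPS replicate 3) to 0.159 (without WT-LPS replicate 2), and without KO-Saline replicate 1 (0.0557). Of 7 members with an Slc9 symbol, 4 had a positive difference in WT, the scaffold gene Slc9a3r1 among them, and 3 a negative one. Spata2, on the opposite strand, ends 4133 bases from the end of Slc9a8. It had 12.2 reads per library and a WT log2 difference of -0.86 ± 0.62 (limma, adjusted p = 0.438). Its part in the Slc9a8 reads was not tested.

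The gene of the iron exporter fell after LPS in both genotypes. Slc40a1, or ferroportin, releases iron from cells (chr1:45908068-45926523, minus strand). It had 136, 173 and 251 reads in WT-Saline and 47, 67 and 63 in WT-LPS, without overlap. Its level fell from 388 ± 71.7 to 123 ± 15.9 CPM (SD, n = 3), a log2 difference of -1.64 ± 0.34 (limma, adjusted p = 0.00124). The call held without each library in turn. It was the only call among the 19 members of the metal group in WT, where limma called 11.7% of all genes. The group's median log2 difference was 0.09, against 0.07 over all genes. Slc11a1, the phagosomal metal pump, had 123, 116 and 131 reads in WT-Saline and 144, 178 and 243 in WT-LPS, a log2 difference of 0.56 ± 0.27 (limma, adjusted p = 0.194).

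Other genes of iron handling, which are not solute carriers, were also called in WT. Of 18 measured, 3 rose and 1 fell (6.72% and 4.96% of all genes). In the KO-labelled libraries only Lcn2 was called (3.35% of all genes), from 728 to 6788 pooled reads. Lcn2, the siderophore-binding lipocalin, went from 562 to 9424 pooled reads, and Ltf, lactoferrin, from 42 to 526 (186 and 185 in the KO-labelled libraries). Steap4, a metal reductase, fell from 270 to 47 reads (236 and 171 in the KO-labelled libraries), and the third gene that rose was Fth1, the ferritin heavy chain, from 1279 to 2394 reads.

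A monoamine transporter and a gene of the monocarboxylate family rose. Slc18a2, which loads monoamines such as histamine and serotonin into vesicles (chr19:59260896-59296012, plus strand), had 139, 148 and 172 reads in WT-Saline and 334, 217 and 309 in WT-LPS. Its level rose from 323 ± 12.1 to 608 ± 170 CPM (SD, n = 3), a log2 difference of 0.87 ± 0.23 (limma, adjusted p = 0.0105). The call was lost without WT-LPS replicate 1 (adjusted p = 0.104). Slc18a2 overlaps a predicted gene by 111 bases and ends 1166 bases from Pdzd8, on the opposite strand, which also rose in WT (1.18 ± 0.30, adjusted p = 0.00851). The part of Pdzd8 in the Slc18a2 reads was not tested.

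Slc16a6, of the monocarboxylate transporter family (chr11:109450855-109473598, minus strand), had 55, 54 and 49 reads in WT-Saline and 110, 118 and 130 in WT-LPS. Its level rose from 113 ± 21.0 to 250 ± 9.67 CPM (SD, n = 3), a log2 difference of 1.16 ± 0.29 (limma, adjusted p = 0.00718), and the call held without each library in turn. It overlaps Arsg, a sulfatase gene on the opposite strand, which had 147.4 reads per library and also rose (0.89 ± 0.26, adjusted p = 0.0239). The part of Arsg in the Slc16a6 reads was not tested. The lactate exporter Slc16a3 had 553 ± 77.5 CPM in WT-Saline against 400 ± 47.2 in WT-LPS (SD, n = 3) and was not called (limma, adjusted p = 0.255). Of 7 Slc16 members, 3 had a positive difference.

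Amino acid transport held 1 call in WT, where limma called 11.7% of all genes. Slc7a5 (LAT1) brings leucine and other large neutral amino acids into the cell as a pair with Slc3a2 (chr8:121881150-121907694, minus strand). It had 0 reads in all 3 WT-Saline libraries and 10, 14 and 1 in WT-LPS. Its mean level was at least 2.87-fold higher against the floor of 3 reads per library (limma, adjusted p = 0.0213). That bound rests on WT-LPS replicates 1 and 2, since replicate 3 stood below the floor. The call was lost without WT-LPS replicate 1 (0.117) or 2 (0.126), or WT-Saline replicate 2 (0.0582) or 3 (0.0595). Slc3a2 had 13, 1 and 19 reads in WT-Saline and 28, 12 and 11 in WT-LPS and was not called (limma, adjusted p = 0.408). Of the 29 members of the group, 18 had a negative difference, with a median of -0.26 on the log2 scale.

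Vitamin and sugar transporters gave single falls. Slc23a1, the ascorbate transporter, had 133, 204 and 201 reads in WT-Saline and 77, 50 and 58 in WT-LPS, a fall of 1.54 ± 0.34 on the log2 scale (limma, adjusted p = 0.00264) that held without each library in turn. Its span overlaps that of Paip2 on the opposite strand. Paip2 had 16.9 reads per library and a WT log2 difference of -0.74 ± 0.55 (limma, adjusted p = 0.45). Slc45a4, of the proton-coupled sugar transporter family (chr15:73577424-73645762, minus strand), had 38, 37 and 41 reads in WT-Saline and 13, 8 and 7 in WT-LPS. Its log2 difference was -2.05 ± 0.55 (limma, adjusted p = 0.0125). That call was lost without WT-LPS replicate 3 (0.0691) or WT-Saline replicate 1 (0.0571). Dennd3, on the opposite strand, ends 5182 bases from the end of Slc45a4. It had 85.25 reads per library and a WT log2 difference of -0.68 ± 0.28 (limma, adjusted p = 0.117). The part of Paip2 and Dennd3 in these reads was not tested.

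The glucose transporters Slc2a6 and Slc2a3 had lower values in all 3 WT-LPS than in all 3 WT-Saline libraries but were not called. Slc2a6 had 133, 171 and 143 reads in WT-Saline and 73, 117 and 86 in WT-LPS, a log2 difference of -0.72 ± 0.27 (limma, adjusted p = 0.0793). Cacfd1, on the opposite strand 274 bases from the end of Slc2a6, had 455.3 reads per library and fell in WT (-1.10 ± 0.25, adjusted p = 0.00378). The part of Cacfd1 in the Slc2a6 reads was not tested. Slc2a3 had a log2 difference of -0.55 ± 0.23 (limma, adjusted p = 0.134), and Slc2a1, which overlaps a predicted gene, one of -0.02 ± 0.36.

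A mitochondrial nucleotide carrier and a gene of the nucleotide sugar family fell. Slc25a33, which brings pyrimidine nucleotides into mitochondria, had 25, 8 and 20 reads in WT-Saline and 2, 0 and 0 in WT-LPS. The ratio of pooled reads was 0.0374 (95% counting interval 0.00442 to 0.142) (limma, adjusted p = 0.0179). The call was lost without WT-LPS replicate 2 (0.0689) or 3 (0.0852), or WT-Saline replicate 1 (0.092) or 3 (0.061), and its fitted log2 difference ran from -5.14 to -3.80 over the 12 libraries left out in turn. Its exons overlap a predicted gene. Slc35a4, of the nucleotide sugar family, had 62, 45 and 35 reads in WT-Saline and 19, 22 and 19 in WT-LPS, a log2 difference of -1.20 ± 0.38 (limma, adjusted p = 0.0374). That call was lost without WT-Saline replicate 1 (0.22) or 2 (0.0921), or WT-LPS replicate 1 (0.0717), 2 (0.0645) or 3 (0.134), and with voom precision weights (0.0545). Its exons overlap Apbb3, which had 4.33 reads per library.

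Of the abundant members, Slc10a1 came nearest to a call in WT. It had 183, 225 and 173 reads in WT-Saline and 121, 130 and 109 in WT-LPS, without overlap in CPM, and a log2 difference of -0.69 ± 0.24 (limma, adjusted p = 0.0565). Its opposite-strand neighbour Srsf5 had a WT difference of -0.725 ± 0.35 (limma, adjusted p = 0.202), and its part in the Slc10a1 reads was not tested. Slc25a18, Slc22a20, Slc31a2, Slc9a3r1, Slc15a3, Slc35e1 and Slc48a1 had log2 differences from -0.44 to 0.38 and were not called, at adjusted p from 0.394 to 0.983 (limma). For Slc25a18, the most abundant, the 95% interval of the log2 difference ran from -0.35 to 0.63.

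**Figure D2:**
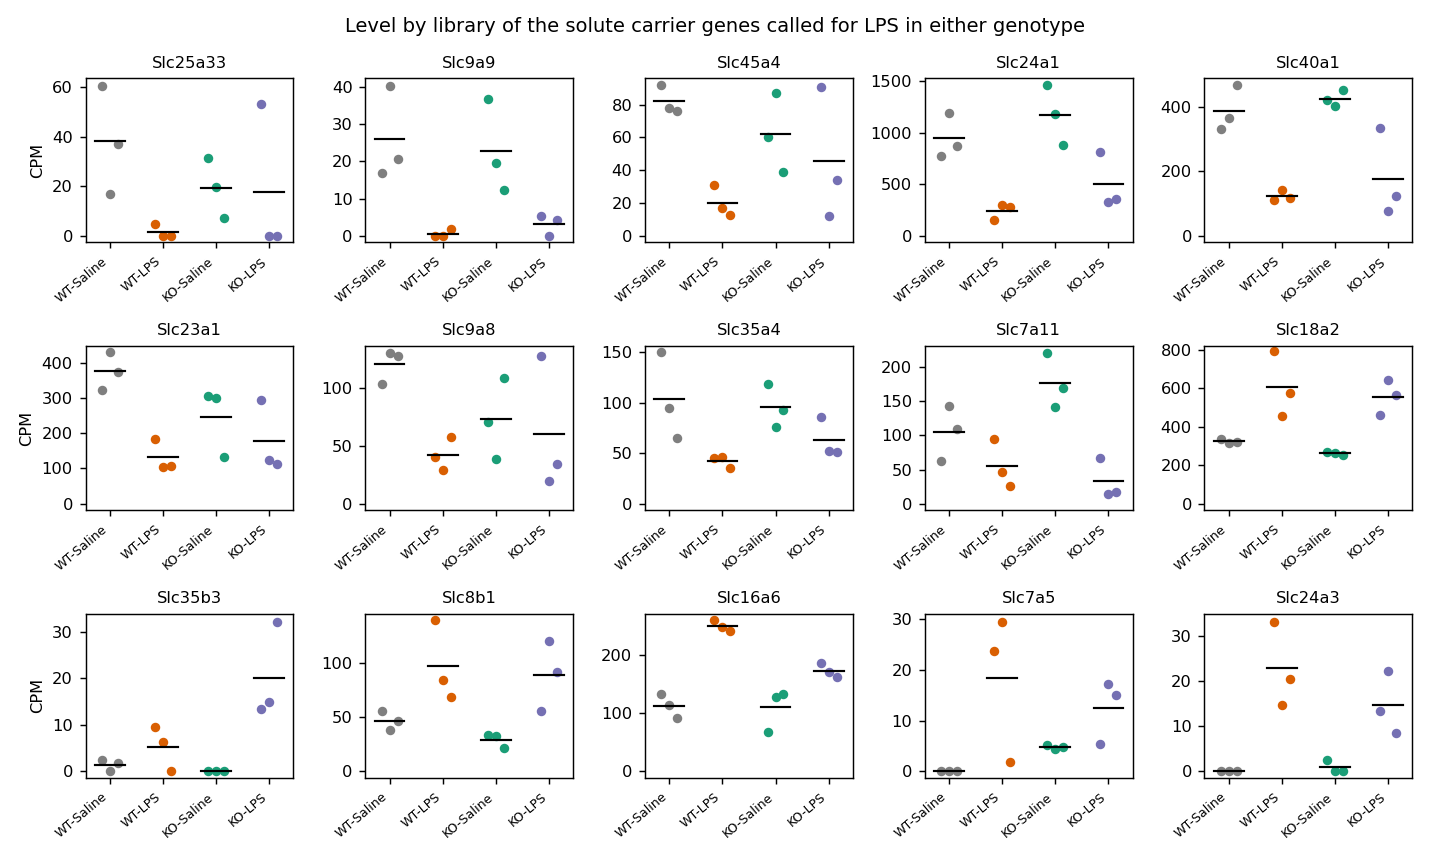
Level of the 15 solute carrier genes called for LPS in WT or in KO-labelled libraries, in CPM. Each dot is 1 library, placed by replicate 1 to 3 from left to right within a group, and the black bar is the group mean. In WT all 3 LPS dots of Slc24a1 and Slc40a1 lie below the saline dots, while KO-LPS replicate 1, the first dot of its group, lies above replicates 2 and 3 for both.

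The second comparison asked for the LPS response of the KO-labelled mice. Limma called 6 of 161 members (3.73%, against 3.35% of all genes). Slc18a2, Slc35b3 and Slc8b1 rose (1.86%, against 1.99%), and Slc24a1, Slc40a1 and Slc7a11 fell (1.86%, against 1.35%). KO-LPS lay above KO-Saline without overlap for 19 members (11.8%, against 10.8%; 18, or 11.2%, against 9.74% without genes that had a library at 0 reads in both groups) and below it for 11 (6.83%, against 6.87%). Without KO-LPS replicate 1, 17 members were called (10.6%, against 11.5% of all genes), 8 higher and 9 lower. The summed platelet markers ran from 651 to 837 CPM in KO-Saline and from 217 to 496 in KO-LPS, and 1 of 3 was called lower. Cd79a ran from 7.30 to 28.9 CPM in KO-Saline against 34.7 to 104 in KO-LPS and was called higher. Of the monocyte and macrophage markers 1 was called lower, with sums of 391 to 438 CPM against 349 to 540. The part of these cells in the changes was not tested. The fit without the mean-variance trend called 0 of the 6, at adjusted p from 0.0853 to 0.227.

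The fall in KO-labelled libraries with the smallest p was that of Slc7a11 (xCT), which exchanges cystine for glutamate and so feeds glutathione synthesis (chr3:49892526-50443614, minus strand). It had 84, 65 and 70 reads in KO-Saline against 25, 6 and 8 in KO-LPS, without overlap. Its level fell from 177 ± 40.2 to 32.9 ± 29.3 CPM (SD, n = 3), a log2 difference of -2.70 ± 0.49 (limma, adjusted p = 0.00263). The call held without each library in turn, and without KO-LPS replicate 1 the difference was -3.36 ± 0.45. In WT, Slc7a11 had 26, 68 and 59 reads in saline and 40, 22 and 14 in LPS, which overlap, and its log2 difference of -1.02 ± 0.49 was not called (limma, adjusted p = 0.195). The difference between the genotypes in this response was -1.67 ± 0.69 on the log2 scale and did not pass the test (limma, adjusted p = 0.792), and without KO-LPS replicate 1 it was -2.34 ± 0.60 (limma, adjusted p = 0.18).

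The Slc7a11 promoter is shown because this was the only KO-labelled call that held without each library in turn. It was chosen after its values were seen, and its 250 bases are from RefSeq (GRCm38.p6, chr3:50443614-50443863, minus strand), 5′ to 3′ on the strand of the gene, with capitals for matches of the same motifs.
Slc7a11: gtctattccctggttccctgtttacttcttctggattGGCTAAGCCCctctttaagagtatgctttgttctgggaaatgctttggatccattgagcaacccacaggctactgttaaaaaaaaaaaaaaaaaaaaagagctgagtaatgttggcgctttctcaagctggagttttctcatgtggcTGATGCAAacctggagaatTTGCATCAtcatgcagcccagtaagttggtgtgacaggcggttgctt
The window held 2 matches of the amino acid response element core, TGATGCAA at -66 and TTGCATCA, its reverse complement, at -47 from the start site, and an NF-kB match at -213. The amino acid response element core was in 3.45% of 32851 promoter windows of all genes. At least 2 matches were in 13 windows (0.0396%), of which Slc7a11 was the only member.

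Genes of the amino acid and oxidative stress response, which act beside Slc7a11, were counted from a list of 25. Of 20 measured, 0 rose and 3 fell in WT (6.72% and 4.96% of all genes), and limma called 0 in the KO-labelled libraries (3.35% of all genes). Atf3, a stress-induced transcription factor, had 149 pooled reads in WT-Saline against 7 in WT-LPS. The KO-labelled libraries held 61 in saline and 22 in LPS. Chac1, which degrades glutathione, had 59 and 4 in WT, and 24 and 9 in the KO-labelled libraries. Gss, glutathione synthetase, had 171 and 68 in WT and overlaps genes on the opposite strand. The list's median log2 difference was -0.10 in WT and -0.13 in the KO-labelled libraries.

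The genes called in both genotypes were Slc24a1, Slc40a1 and Slc18a2, each in the same direction. Slc24a1 fell by 1.32 ± 0.29 on the log2 scale in the KO-labelled libraries (limma, adjusted p = 0.00984), and by 1.74 ± 0.24 without KO-LPS replicate 1. That call was lost without KO-LPS replicate 2 (0.123) or 3 (0.0966), or KO-Saline replicate 1 (0.0679) or 2 (0.0565). Dennd4a, its neighbour, fell too (-0.91, adjusted p = 0.0375).

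Slc40a1 had 160, 185 and 185 reads in KO-Saline against 125, 31 and 57 in KO-LPS, a log2 difference of -1.53 ± 0.34 (limma, adjusted p = 0.00932). Replicate 1 was the highest of the KO-LPS libraries, and without it the difference was -2.12 ± 0.26. The call was lost without KO-LPS replicate 2 (0.144) or 3 (0.0795) or KO-Saline replicate 3 (0.0605), and in a fit of the compared groups alone (0.0596). Slc18a2 had 103, 122 and 105 reads in KO-Saline against 172, 260 and 264 in KO-LPS, a rise of 1.06 ± 0.23 on the log2 scale (limma, adjusted p = 0.00825). Without KO-LPS replicate 1 the rise was 1.19 ± 0.22 (limma, adjusted p = 0.000177). The call was lost without KO-LPS replicate 2 (0.0917) or 3 (0.0633).

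A mitochondrial exchanger and a sulfate donor carrier rose in the KO-labelled libraries. Slc8b1 (NCLX), which lets calcium out of mitochondria in exchange for sodium (chr5:120511168-120534024, plus strand), had 13, 15 and 9 reads in KO-Saline against 21, 49 and 43 in KO-LPS. Its log2 difference was 1.52 ± 0.41 (limma, adjusted p = 0.0356), and 1.82 ± 0.44 without KO-LPS replicate 1. In WT it had 23, 18 and 25 reads in saline and 59, 40 and 37 in LPS, also without overlap (limma, adjusted p = 0.124). The KO-labelled call was lost without KO-LPS replicate 2 (0.265) or 3 (0.177), any 1 of the KO-Saline libraries (0.0579, 0.0799 and 0.139) or WT-LPS replicate 2 (0.0502). It was also lost with voom precision weights (0.0763) and in a fit of the compared groups alone (0.128). Tpcn1, a calcium channel gene on the opposite strand whose end lies 129 bases away, had 123.4 reads per library and log2 differences of 0.76 in the KO-labelled and 0.81 in the WT libraries. Its part in the Slc8b1 reads was not tested.

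Slc35b3 carries PAPS, the sulfate donor, into the Golgi. It had 0 reads in all 3 KO-Saline libraries and 5, 6 and 15 in KO-LPS, at least 2.78-fold higher (limma, adjusted p = 0.0327). Without KO-LPS replicate 1 the adjusted p was 0.0174 (limma). The call was lost without KO-LPS replicate 2 (0.137) or 3 (0.198) and without any 1 of the KO-Saline libraries (0.0735, 0.0973 and 0.0951), and in a fit of the compared groups alone (0.0711). In WT it had 1, 0 and 1 reads in saline and 4, 3 and 0 in LPS. Its exons overlap a non-coding gene that had 1.25 reads per library.

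Leaving out KO-LPS replicate 1 added 11 members to the 6, and these are named although they fall outside the rule for named genes. Of genes called in WT, Slc23a1 (-0.96 ± 0.31, adjusted p = 0.0345) and Slc25a33 (-3.96 ± 1.15, adjusted p = 0.0183) were added. The lactate exporter Slc16a3 (-0.83 ± 0.22, adjusted p = 0.00921) and the glucose transporter Slc2a6 (-0.86 ± 0.26, adjusted p = 0.0222) also fell in that fit. Slc35e4 and Slc36a2 fell as well, and Slc26a10, Slc25a12, Slc25a24, Slc39a1 and Slc2a9 rose (Slc26a10 overlaps B4galnt1), at adjusted p from 0.0143 to 0.0459. Slc2a9, the urate and hexose transporter, had 0 reads in each KO-Saline library and 0, 3 and 13 in KO-LPS. Its mean level over all KO-LPS libraries, replicate 1 included, was at least 1.63-fold higher against the floor of 3 reads per library. That bound rests on replicate 3, since replicate 2 stood at the floor. At the 12 members called in WT, replicate 1 was nearer to the KO-Saline mean for 8, and replicates 2 and 3 for 0.

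**Figure D3:**
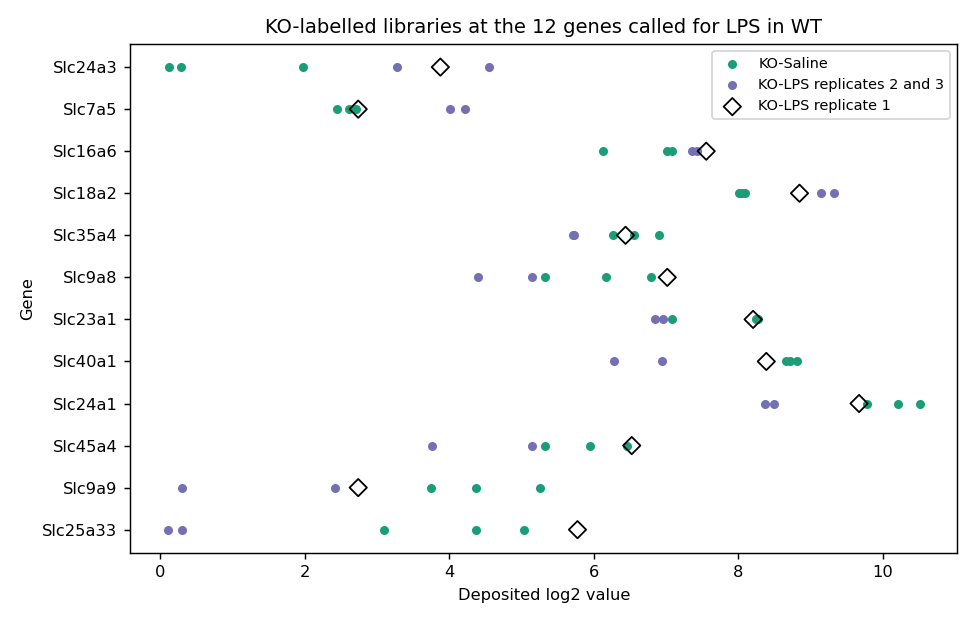
Deposited log2 values of the KO-labelled libraries at the 12 solute carrier genes called for LPS in WT. Filled dots are KO-Saline (green) and KO-LPS replicates 2 and 3 (purple), and the open diamond is KO-LPS replicate 1, which lies nearer to the KO-Saline mean for 8 of the 12.

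The LPS responses of both genotypes share no library. Their log2 differences had the same sign for 102 of 161 members (63.4%), against 68.4% of all genes. Among the 77 members with a mean of at least 10 reads, 55 (71.4%) had the same sign, against 73.7% of all genes with as many reads. Across those 77 genes the Pearson correlation was 0.66, against 0.74 over all genes with as many reads. Genes are not independent replicates, so these values describe the libraries.

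**Figure D4:**
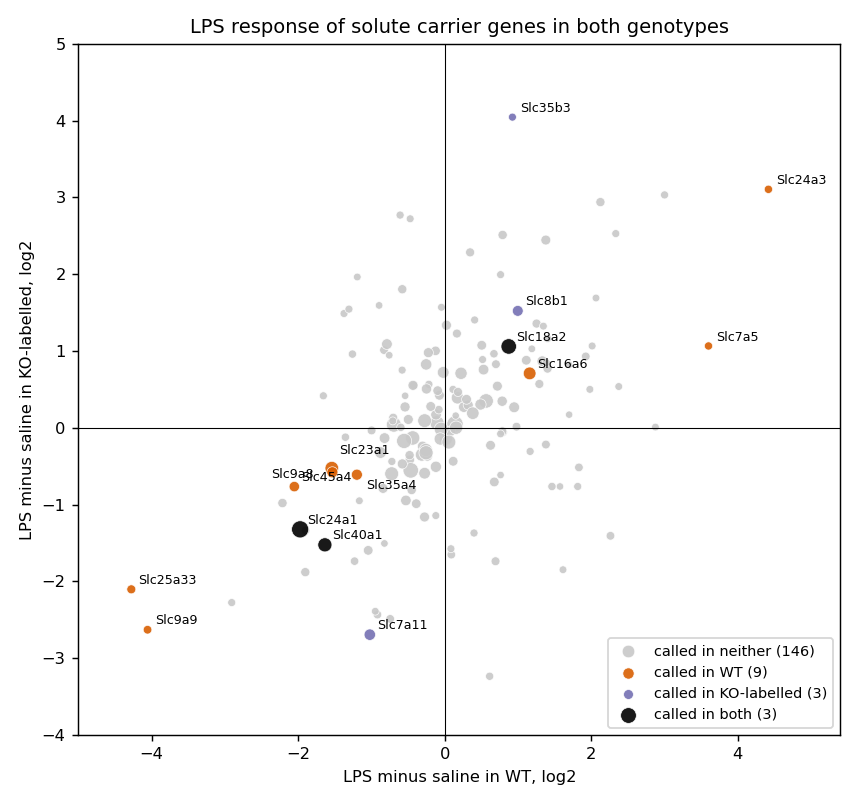
Log2 difference of LPS minus saline for each of the 161 solute carrier genes, in WT libraries (horizontal) and KO-labelled libraries (vertical). Larger dots have more reads, and colours mark the genes called in WT (9), in KO-labelled libraries (3), in both (3) or in neither (146). Slc24a1, Slc40a1 and Slc18a2 are the genes called in both.

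Substrate groups were assigned by family number and were not tested. In WT their medians ran from -0.52 on the log2 scale, for the 8 members of monocarboxylate and organic acid families, to 0.49 for the 13 of hexose and polyol families, against 0.07 over all genes. The median of the second group was the value of Slc5a6, a multivitamin transporter in a family of mostly sugar transporters, and it was 0.35 without that gene. With each library left out in turn, the first median rose to -0.10 (without WT-LPS replicate 2) and the second ran from 0.21 (without WT-Saline replicate 1) to 0.60. In the KO-labelled libraries the 27 mitochondrial carriers had a median of 0.57, against 0.09 over all genes, and 20 of the 27 had a positive difference. None of the 27 was called by limma there (3.35% of all genes), and in WT 14 of 27 were positive with a median of 0.02. Leaving out each library, the median of these carriers in the KO-labelled comparison ran from 0.39 (without KO-Saline replicate 3) to 0.87 (without KO-Saline replicate 1). With quantile normalization it was 0.31, with 18 of 27 positive, and the WT median was -0.02. The 7 members of vitamin, choline and lipid families had a KO-labelled median of -0.59, with 6 of 7 negative and 0 called by limma, and it ran from -0.66 to -0.28 (without KO-LPS replicate 3). Slc25a24, an ATP and phosphate carrier, had 5, 14 and 0 reads in KO-Saline against 12, 12 and 40 in KO-LPS, a log2 difference of 2.45 that was not called (limma, adjusted p = 0.0904). Without KO-Saline replicate 3, the library at 0, the difference was 1.07 ± 0.58 (limma, adjusted p = 0.431). Slc25a16 had 0, 1 and 0 reads in KO-Saline against 3, 5 and 5 in KO-LPS, a ratio of pooled reads of 13.1 (95% counting interval 1.96 to 555; limma, adjusted p = 0.149).

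**Figure D5:**
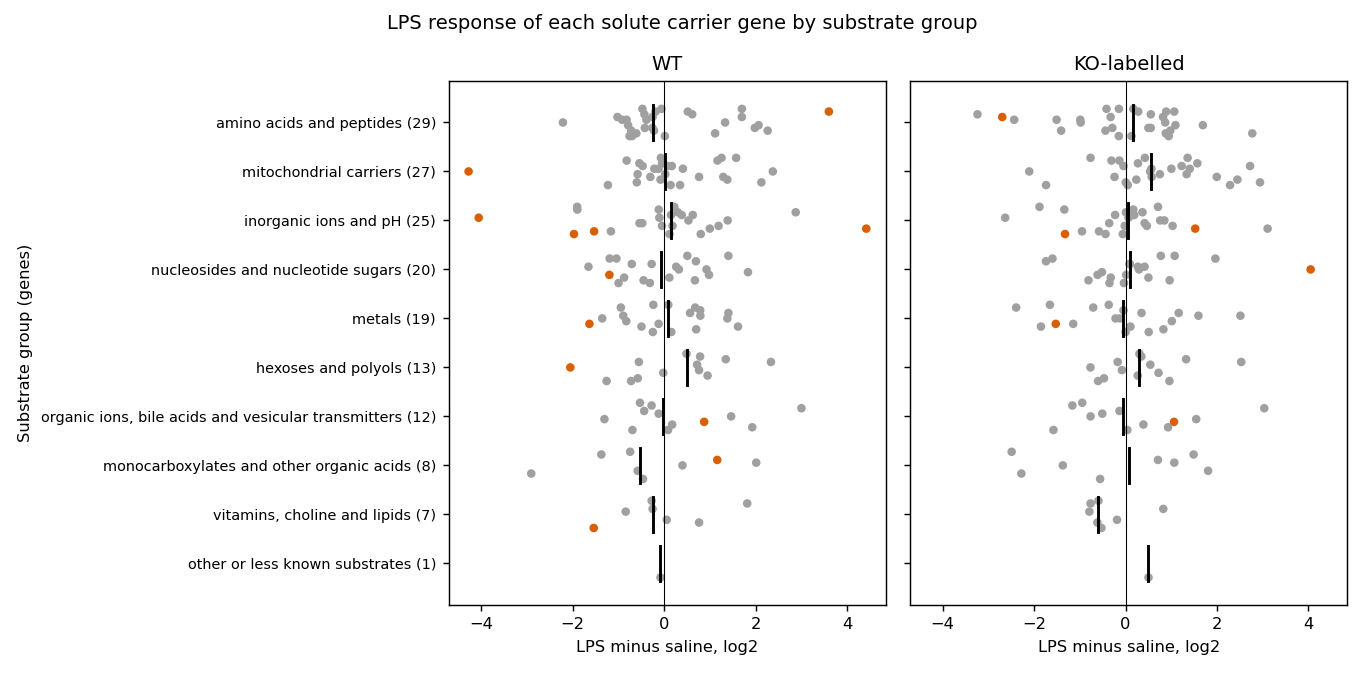
Log2 difference of LPS minus saline for each solute carrier gene by substrate group, in WT (left) and KO-labelled libraries (right). Orange dots are genes called by limma and the black bar is the median of the group. The 27 mitochondrial carriers have a median of 0.02 in WT and 0.57 in KO-labelled libraries.

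The third question was the difference between genotypes. In saline, limma called 0 of 161 members (0.0107% of all genes), and 14 (8.7%) had an unadjusted p under 0.05, against 6.86% of all genes. In LPS it called 0 members (0% of all genes), and 8 (4.97%) had an unadjusted p under 0.05, against 5.02%. Averaged over both treatments it called 0 members (0.0107%) and 9 (5.59%) had an unadjusted p under 0.05, against 5.65%. For the interaction, the LPS response of KO-labelled minus WT libraries, it called 0 (0%) and 9 (5.59%) against 5.97%. No alternative that was run, voom precision weights included, called a member in these 4 comparisons.

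The members of smallest p are given as values. In saline they were Slc35d2, a nucleotide sugar transporter, Slc6a20b, an imino acid transporter, Slc16a4, Slc39a1 and Slc46a3. Slc35d2 had 2, 1 and 0 reads in WT-Saline and 9, 20 and 5 in KO-Saline, 12.9 times as many after scaling (95% counting interval 4.05 to 65.5) (limma, adjusted p = 0.414). Slc6a20b, which overlaps Sacm1l by 1800 bases, had 28, 48 and 44 reads in WT-Saline and 10, 24 and 13 in KO-Saline (log2 difference -1.20 ± 0.41, adjusted p = 0.522). Neither pair of groups overlapped in CPM. Slc16a4, a monocarboxylate transporter family gene, had a log2 difference of -2.35 ± 0.86, the zinc importer Slc39a1 one of -2.11 ± 0.80, and the lysosomal transporter Slc46a3 one of -0.94 ± 0.36, with adjusted p of 0.594, 0.596 and 0.618. Slc16a4 and Slc39a1 had 0 reads in KO-Saline replicate 3, and without it their differences were -1.17 ± 0.73 and -1.13 ± 0.69.

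In LPS, Slc24a1 had the smallest p among members. Its KO-LPS libraries, with 305, 134 and 167 reads, lay above the WT-LPS libraries in CPM, a log2 difference of 0.96 ± 0.29 (limma, adjusted p = 0.838). Without KO-LPS replicate 1, the highest of the 3, the difference was 0.545 ± 0.24 (limma, adjusted p = 0.942). Slc25a37 (mitoferrin), which carries iron into mitochondria and overlaps predicted genes by 381 bases, had 14, 15 and 17 reads in WT-LPS and 32, 33 and 25 in KO-LPS (1.14 ± 0.40, adjusted p = 0.857). Slc10a1 had 121, 130 and 109 reads in WT-LPS and 176, 173 and 150 in KO-LPS (0.67 ± 0.24, adjusted p = 0.857). Slc29a4, a monoamine transporter, had 1 pooled read in WT-LPS and 12 in KO-LPS, a ratio of 13.8 (2.04 to 590). Slco4a1, an organic anion transporter, had 12 and 1, a ratio of 0.0959 (0.00224 to 0.648).

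Averaged over both treatments, Slc35d2 (2.06 ± 0.64), Slc24a1 (0.63 ± 0.21), Slc35c2, a fucose transporter family gene (-0.96 ± 0.34), Slc25a37 (0.80 ± 0.29) and Slc18a1, a vesicular monoamine transporter (0.61 ± 0.26), had the smallest p, with adjusted p from 0.721 to 0.856 (limma). Slc35c2 had 18, 19 and 30 reads in WT-Saline and 8, 16 and 7 in KO-Saline. After LPS it had 27, 22 and 35 reads in WT and 8, 15 and 14 in KO-labelled libraries. Without KO-LPS replicate 1, the averaged difference of Slc24a1 was 0.43 ± 0.16 (limma, adjusted p = 0.531). For the interaction the smallest p was that of Slc6a20b, whose difference was -0.79 ± 0.41 in WT and 1.09 ± 0.41 in KO-labelled libraries (interaction 1.88 ± 0.58, adjusted p = 0.677). Slc36a1, an amino acid transporter of lysosomes, Slc7a11, Slc25a16 and Slc41a1, a magnesium transporter, followed, with adjusted p from 0.792 to 0.819.

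Transport genes outside the solute carriers were counted from lists chosen by symbol. The shares of all genes that rose and fell, 6.72% and 4.96% in WT and 1.99% and 1.35% in the KO-labelled libraries, stand beside each count that follows. Of 25 ABC transporters, 3 rose and 1 fell in WT, and 2 rose in the KO-labelled libraries. Abca13, of the lipid transporters, went from 20 to 360 pooled reads in WT and from 29 to 325 in the KO-labelled libraries. Abcg1, a cholesterol exporter, fell from 256 to 101 in WT. Of 39 ATPase genes for ion pumps and lipid flippases, 4 rose and 3 fell in WT and 1 fell in the KO-labelled libraries. The lipid flippase Atp11a rose from 151 to 607 pooled reads in WT, and the calcium pump Atp2a2 fell from 201 to 54. Both Atp11a and Atp2a2 overlap predicted genes.

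Of 11 measured partner subunits and chaperones of solute carriers, limma called 0 in either LPS comparison. Of 23 nutrient sensing and mTORC1 genes, 2 rose and 1 fell in WT, and 1 rose in the KO-labelled libraries. Rptor, the mTORC1 scaffold, had 8 pooled reads in WT-Saline against 396 in WT-LPS, and 34 and 442 in the KO-labelled libraries. It overlaps the antisense gene Rptoros, so its reads are uncertain. Lamtor4, a lysosomal anchor of mTORC1, rose from 120 to 420 reads in WT, and Tfeb, a regulator of lysosome genes, fell from 185 to 81.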

How the data were processed

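RNA extraction used the Qiagen miRNeasy micro kit, and library preparation the Tecan Universal Plus kit for total RNA, with mouse probes, per the labels' protocols. The authors deposited a table of normalized log2 values for 9374 genes by NCBI Gene ID, in 12 columns, 1 for each library. Per the submitters' processing notes the build was mm10. The sources used here do not give the aligner, the counter, its strand setting or the gene filter. The values have the form of log2 CPM with 0.5 reads added, since whole reads came back within 0.0001 for 100.0% of values in each column.

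Symbols came from RefSeq (GRCm38.p6) and exon lengths, overlaps and strands from GENCODE M21. The deposited log2 values were tested with limma 3.58.1 in R 4.3.3 (4 group means over 12 libraries, mean-variance trend, two-sided, Benjamini-Hochberg over all 9374 genes, called at adjusted p under 0.05). The design's filter removed 0 genes. The value after ± is a standard error for log2 differences and an SD for CPM. Adjusted p-values are from this limma fit unless another fit is named. The fitted differences can understate changes of low genes where a whole group is at 0 reads. They can overstate them where 1 library of a group is at 0 reads, as in the values given for Slc25a24 and Slc16a4. Genes at 0 reads in a group are given as bounds against a floor of 3 reads per library (5.58 to 8.00 CPM), and genes with 1 to 3 reads as ratios of pooled reads. Intervals are for reads pooled over the libraries of a group and cover counting error only, not the spread between libraries. No molecular identifiers separate molecules from copies, so the counting error may itself be understated. The script was tested on simulated data.

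The members, gene lists and rules were chosen with earlier results of these data known. Named were the called members, the 5 of smallest p where fewer than 5 were called, the 10 highest per length, the highest of each substrate group, family members of these and up to 3 called genes of each related list. Some genes that this rule names are not reported here. Alternatives were the fit without trend, voom precision weights, 2 reads added, a mean of at least 10 reads, quantile normalization, no scaling factors, the compared groups alone, a replicate block, library weights, members without opposite-strand overlap and each library left out in turn. The count of groups without overlap that leaves out genes with a library at 0 reads in both groups, and the median without Slc5a6, were chosen after seeing the data.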

Additional observations from a re-analysis of the deposited data

How the results depend on the processing

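Of the 12 members called for LPS in WT, 6 were called without each library in turn. Under each of the other alternatives that covered the gene 4 were called, and 3 (Slc24a1, Slc24a3 and Slc9a9) passed both checks. The fit of genes with a mean of at least 10 reads left out Slc24a3, Slc9a9 and Slc7a5. They were thus covered by 8 other alternatives, against 9 for Slc24a1. Of the 6 called in the KO-labelled libraries, Slc7a11 alone was called without each library in turn and none under each of the other alternatives. The WT count was 4 without the mean-variance trend and 19 with library weights, and from 8 to 15 with each library left out. The KO-labelled count was 0 without the trend, 3 with only the compared groups and 12 with library weights. Leaving out libraries moved the KO-labelled count between 1 (without KO-LPS replicate 2, or replicate 3) and 17 (without KO-LPS replicate 1), with 3 without KO-Saline replicate 3. The cause was not tested. The share of all genes called in the KO-labelled comparison moved too, from 3.35% to 11.5% without KO-LPS replicate 1. It is not given for the other settings of this paragraph, so these counts do not set the transporters apart from the whole table. Among the 117 members without opposite-strand overlap, 8 were called in WT and 4 in the KO-labelled libraries. Of 1258 values of named genes under an alternative, 1180 kept their side of the threshold, 62 lost and 16 gained the call, and 0 called values changed sign. The counts of 0 for genotype and interaction stayed at 0 under each alternative run. With the replicate number as a block, 13 members were called in WT and 6 in the KO-labelled libraries. Libraries with the same number did not deviate together (correlations from -0.07 to 0.04). At a median of 11.33 reads per library over all genes, counting error could hide a pairing, so this check does not exclude one. Quantile normalization moved the median of all genes in the KO-labelled comparison from 0.09 to -0.01. Substrate group medians were the same to 2 decimals with genes at 0 reads set at their bounds. At a median of 9.08 reads per library, 84 of 161 members had a mean under 10 reads, where only large differences could be detected.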

Other observations

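Neighbouring genes were set beside the members after the values were seen. For each member and strand, the nearest measured protein-coding gene within 10000 bases or overlapping was taken, among those that met the minimum of reads. Where both genes were members, the pair counted once from each. On opposite strands, 33 pairs had a mean of at least 10 reads in both genes. In 25 of these pairs (75.8%) the LPS difference in WT had the same sign in both genes, with a Pearson correlation of 0.57 across pairs. Of 17 such pairs on the same strand, 12 (70.6%) had the same sign, with a correlation of 0.24. In 20 of the 33 opposite-strand pairs the neighbour had more reads than the solute carrier. The same held in 6 of the 17 same-strand pairs. With no minimum of reads, 46 of 71 opposite-strand pairs had the same sign (correlation 0.37) and 24 of 46 same-strand pairs (correlation -0.07). Pairs share libraries, genes are not independent and no share for pairs of other genes is given, so these values are a description.

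Some neighbours changed where the solute carrier did not pass the test. Csnk1d, whose end lies 881 bases from that of Slc16a3 on the opposite strand, had 636.6 reads per library and a WT difference of -2.16 ± 0.31 (limma, adjusted p = 2.65e-05), against -0.46 ± 0.25 for Slc16a3. Fkbp15, 1931 bases from the end of Slc31a2, rose in WT (1.54 ± 0.35, adjusted p = 0.0033), against 0.16 ± 0.30 for Slc31a2.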
